A study of Mus musculus with 12 samples.

Results

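Cells of the wild-type mouse epidermis in the CD45+CD3-CD11b+MHCII+ gate were compared between day 5 after birth (P5) and 1.5 months of age (1.5M), over all genes of the deposited table. The members were 6 of the 12 libraries of the series, chosen by genotype, with 3 libraries at each age. Each library was made from a tube of 100 sorted cells. The 6 other libraries came from mice lacking Cbfβ2, a splice form of the core-binding factor subunit that partners Runx proteins, at the same ages, and they entered the shared estimate of spread and the comparison of age effects. No treatment or transgene is named for the wild-type mice. Libraries within a group are independent preparations per the labels, which do not say whether they came from separate animals, so the p-values measure the spread between these libraries, which may be technical.

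Langerhans cells are the dendritic antigen-presenting cells of the epidermis. They descend from macrophage-like precursors that seed the skin before birth, proliferate there after birth, and take on langerin, epithelial adhesion molecules and high surface MHC class II. Their development depends on TGF-β and on Runx and core-binding factor proteins, and mature cells keep macrophage as well as dendritic cell properties.

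Values are molecule counts scaled to 37092 per library. One molecule was worth 0.710 to 1.08 in the 3 P5 libraries and 0.715 to 0.921 in the 3 libraries of 1.5M. For a gene with no molecule in any library of an age, the count of 0 allows up to 3 molecules over the 3 libraries, which is a mean of 0.895 at P5 and 0.831 at 1.5M. Folds against a group at 0 were computed against this floor, which covers counting error only. Changes are log2 fold changes of 1.5M against P5 on log2(value + 1), which understates the change of low genes. Beside the median of a gene list stands its floored log2 ratio, the median over members of the log2 ratio of group means with means under the floor raised to it.

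The gate was visible in the RNA. Ptprc, which encodes CD45, was at 15.6, 18.4 and 13.7 at P5 and 14.7, 14.3 and 19.5 at 1.5M, and Itgam, which encodes CD11b, was at 4.26, 7.59 and 2.93 and 5.53, 1.43 and 7.11. The 3 CD3 chains Cd3e, Cd3d and Cd3g were at 0 in all 6 libraries. Langerin itself separated the ages: as given below, Cd207 was near 0 at P5. The P5 cells are therefore named here by their gate and age and not as langerin-positive cells. Fewer cells of a type and less RNA per cell cannot be told apart in such pooled cells.

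The shift from P5 to 1.5M was carried by 522 of 10023 tested genes, or 5.21%, at an adjusted p under 0.05. Of these, 237 (2.36% of the genes tested) were higher at 1.5M and 285 (2.84%) were lower, and 1821 genes had an unadjusted p under 0.05. With median-of-ratios scaling 61.0% of the calls were higher, against 45.4% with the deposited scaling. Changes of 4-fold or more on the fitted scale numbered 170, with 96 higher and 74 lower. At 0 in every P5 library were 51 of the genes called higher, and at 0 in every 1.5M library were 94 of those called lower. The libraries of both ages did not overlap for 1928 tested genes, or 19.2%, and for 520 of the 522 called genes. Without 1.5M library 1 the count was 346, and without 1.5M library 2 it was 347. The median change over all tested genes was -0.22, and -0.11 with median-of-ratios scaling, which is the level against which the changes below are to be read.

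**Figure D1:**
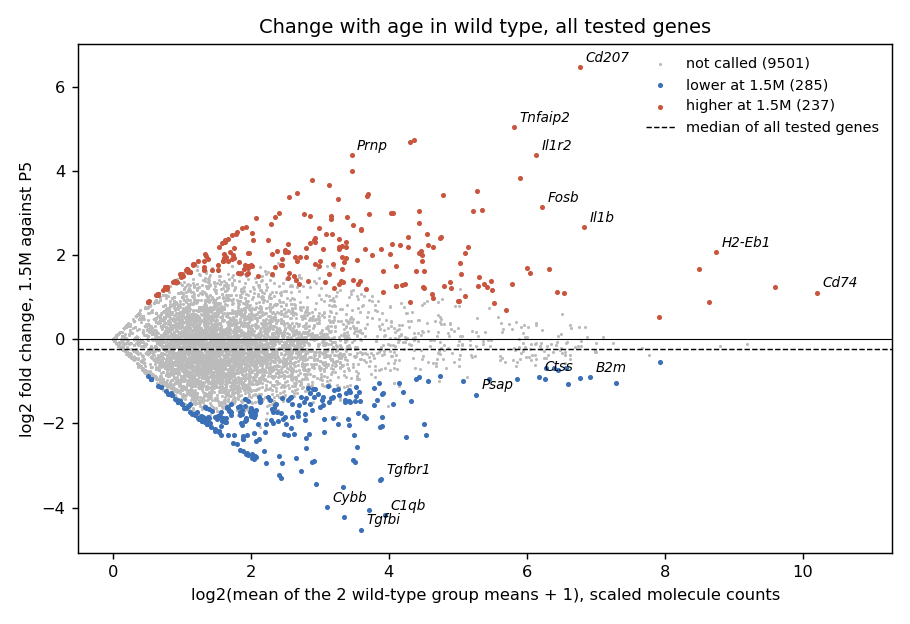
Log2 fold change of 1.5M against P5 for the 10023 tested genes (vertical axis) against the log2 mean scaled molecule count of the wild-type groups (horizontal axis), with genes called higher (237) and lower (285) in colour. Cd207 had the highest fold change and Tgfbi the lowest, and the dashed line is the median of all tested genes at -0.22.

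Depth was 34192 to 52208 molecules per library at P5 and 40254 to 51848 at 1.5M. Detected genes numbered 7403 ± 645 at P5 and 6450 ± 310 at 1.5M (SD, n = 3, exact permutation test, two-sided p = 0.1, the smallest that 3 against 3 allows), and at equal depth 6523 ± 76.5 and 5482 ± 6.66 (exact permutation p = 0.1). On the first principal component of the 6 libraries, with 52% of the variance over 3122 genes, the ages stood apart. Summed counts of the Y-linked genes Ddx3y, Eif2s3y, Kdm5d and Uty were 0 in all 3 P5 libraries and 2.76, 4.79 and 3.55 at 1.5M. Xist, the X-inactivation RNA, was at 36.9, 21.7 and 16.6 at P5 and 6.45, 9.30 and 13.3 at 1.5M. The labels give no sex, and a different mix of sexes at the 2 ages cannot be told apart from age, for sex-linked or other genes.

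Langerin led the increase. Cd207, which encodes langerin, the lectin that builds Birbeck granules, was at 0.7105, 1.08 and 2.93 at P5 and at 189, 201 and 252 at 1.5M. Every library of 1.5M stood far above every P5 library (log2 fold change 6.47 ± 0.32 (SE), adjusted p = 7.12e-12). It lies at chr6:83671215-83677857 on the minus strand (mm10). The 250 bases before its RefSeq start (RefSeq on GRCm38.p6, chr6:83677858-83678107, minus strand) are shown because Cd207 was the gene that rose most, with matches to the AP-1 letters TGANTCA and the Ets letters GAGGAA, read on both strands, in capitals.
Cd207: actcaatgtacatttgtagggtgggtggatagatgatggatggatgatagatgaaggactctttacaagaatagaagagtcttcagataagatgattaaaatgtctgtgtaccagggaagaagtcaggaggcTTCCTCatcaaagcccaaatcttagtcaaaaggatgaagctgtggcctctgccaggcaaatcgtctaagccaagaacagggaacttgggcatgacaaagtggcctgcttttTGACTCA
The AP-1 match starts 7 bases and the Ets match 118 bases before the start, and the Runx letters TGTGGT are not in this window. Of all 32851 RefSeq windows of this length, 6.75% hold the AP-1 letters, 23.3% the Ets letters and 14.05% the Runx letters. These matches are descriptions of letters and not evidence of binding.

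Several other identity genes of Langerhans cells rose too. Of 14 tested members, Cd207 included, 6 rose, 1 fell and 7 were not called, with a median of 0.82 (0.92 as the floored log2 ratio). H2-M2, a nonclassical MHC class I gene, was at 2.13, 0 and 0 at P5, which is 3 molecules in a single library, and at 39.6, 34.3 and 36.4 at 1.5M (log2 fold change 4.69, adjusted p = 1.72e-07). Cldn1, a tight junction claudin through which Langerhans cells dock to keratinocytes, went from 13.5, 8.68 and 13.7 to 56.2, 56.5 and 57.8 (log2 fold change 2.18, adjusted p = 0.000269). Mfge8, a secreted bridge to apoptotic cells, went from 8.53, 3.25 and 4.88 to 65.4, 66.5 and 78.2 (log2 fold change 3.51, adjusted p = 2.17e-06). The 1.5M libraries agreed closely for both genes, and neither overlapped P5, as for nearly all called genes.

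The adhesion molecule Epcam was already present at P5, at 14.2, 17.4 and 19.5, and reached 43.3, 35.8 and 43.5 at 1.5M (log2 fold change 1.22, adjusted p = 0.0461). That call was lost without any single one of the 6 libraries, with adjusted p from 0.0715 to 0.151. Cd24a, a surface glycoprotein, went from 5.68, 9.76 and 0.977 to 23.96, 18.6 and 23.99 (log2 fold change 2.14, adjusted p = 0.0143). Its call was lost without P5 library 3 (adjusted p = 0.0918), 1.5M library 1 (0.0535) or 1.5M library 3 (0.0540). E-cadherin and the CSF1 receptor did not pass the test: Cdh1 was at 23.9999, 21.7 and 24.4 and 25.8, 33.1 and 32.9, and Csf1r, the receptor that maintains these cells, at 39.1, 59.7 and 46.9 and 65.4, 52.2 and 76.4. Cdh1 values are fractions of a molecule step in 4 of the 12 libraries, as when molecules are shared between genes, and are uncertain. Id2, a helix-loop-helix inhibitor needed for Langerhans cells to form, was the exception. It fell from 16.3, 17.4 and 20.5 to 0, 4.29 and 5.33 (log2 fold change -2.56, adjusted p = 0.000935).

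**Figure D2:**
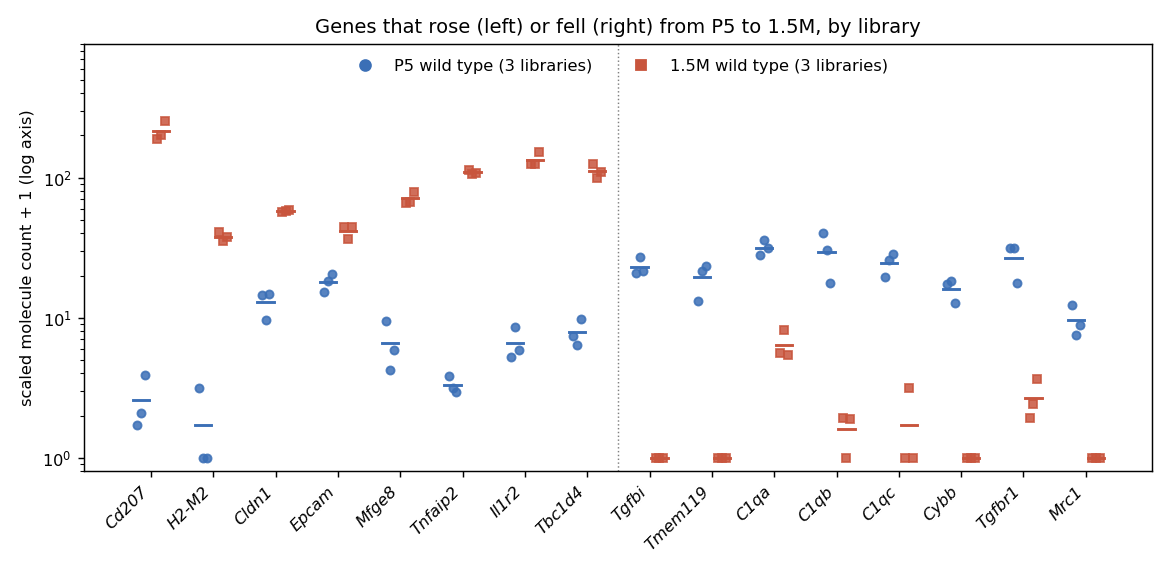
Scaled molecule counts + 1 on a log axis in each of the 3 P5 (circles) and 3 1.5M (squares) wild-type libraries for 8 genes that rose, on the left, and 8 that fell, on the right; bars are group means. No 1.5M library overlapped a P5 library for any of the 16 genes, as for 520 of the 522 called genes. Tgfbi, Tmem119, Cybb and Mrc1 were at 0 in every 1.5M library.

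Genes outside the identity list were also among those with the largest increases. Tnfaip2, a TNF-induced gene of myeloid cells, was at 2.84, 2.17 and 1.95 at P5 and 112, 104 and 108 at 1.5M, which is 46.6-fold (log2 fold change 5.05, adjusted p = 6.75e-10). Il1r2, the decoy receptor that takes up interleukin-1, rose from 4.26, 7.59 and 4.88 to 124, 124 and 151, or 23.9-fold (log2 fold change 4.38, adjusted p = 3.51e-09). Tbc1d4, a Rab GTPase activator of vesicle traffic, rose from 6.39, 5.42 and 8.79 to 124, 98.7 and 108, or 16.1-fold (log2 fold change 3.84, adjusted p = 2.94e-08). In each of these 3 genes the lowest 1.5M library was above the highest P5 library by a wide margin. Lack of overlap was part of the rule that chose them. Ndrg1, a stress-responsive gene, rose 12.8-fold (log2 fold change 3.44, adjusted p = 2.24e-06). Prnp, the prion protein gene, was at 0 in all 3 P5 libraries and at 23.96, 15.7 and 20.4 at 1.5M, at least 22.4-fold higher. P2ry10, an X-linked lysophospholipid receptor, was at 0, 0 and 1.95 and then at 25.8, 40.8 and 48.9 (log2 fold change 4.74, adjusted p = 7.8e-07).

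Several genes were at or near 0 at P5. Ninl, a centrosomal protein gene, was at 0 in all 3 P5 libraries and at 12.9, 11.4 and 14.2 at 1.5M, at least 14.4-fold higher. Sept3, a septin, was at least 11.9-fold higher and Col16a1, a minor collagen, at least 10.8-fold higher at 1.5M. Sema7a, a membrane-anchored semaphorin, had a single molecule over the P5 libraries and was at 18.4, 11.4 and 15.99 at 1.5M (log2 fold change 3.67, adjusted p = 2.06e-05). Crem, a cAMP-responsive transcription factor, rose from 1.42, 1.08 and 0.977 to 25.8, 18.6 and 23.99, or 19.6-fold (log2 fold change 3.45, adjusted p = 5.96e-05). Ninl and Sept3 were at 0 in every knockout library too. Only values above 0 in at least 3 of 12 libraries were tested. Ninl, Sept3, Col16a1, Sema7a and Prnp passed that filter only through the 1.5M wild-type libraries, where they are high. Their low level at P5 is thus partly fixed by the choice of genes.

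Chain and chaperone genes of MHC class II presentation rose, and several genes of class I fell. The class II genes encode the α and β chains that hold peptides, the invariant chain that guides them, and the DM chaperone that loads peptide. Class II protein was part of the sort gate at both ages, so these levels describe cells already selected for it. The list's summed level was 1799.6, 1787 and 1766 at P5 and 4121, 4029 and 4477 at 1.5M. This is 4.76% to 4.85% of a library's molecules at P5 and 10.9% to 12.1% at 1.5M. Since every library is scaled to the same total, such a rise lowers the other values by construction; without the list's members 494 genes were called, an alternative chosen after seeing the data. Of 17 tested members 6 rose and 2 fell (median 0.37 (0.38 as the floored log2 ratio)).

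The β chain H2-Eb1 rose most, from 168, 142 and 181 to 699, 638 and 729, or 4.21-fold (log2 fold change 2.07 ± 0.13 (SE), adjusted p = 6.43e-10). H2-Ab1 went from 179, 151 and 184 to 490.2, 598 and 554 (3.197-fold, adjusted p = 1.72e-07). The α chain H2-Aa went from 502, 427 and 439.6 to 1035, 1019 and 1215 (2.39-fold, adjusted p = 2.94e-08). None of the 3 chain genes overlapped between the ages, as for 520 of the 522 called genes. Cd74, the invariant chain, went from 692, 856 and 710.1 to 1636, 1510.2 and 1697 (2.14-fold, adjusted p = 1.53e-07, and 0.412 after quantile normalization, which fixes the top values of every library). The loading chaperone genes H2-DMa (2.15-fold, adjusted p = 0.000475) and H2-DMb1 (2.27-fold, adjusted p = 0.01501) rose as well. H2-DMb1 was not called without P5 library 2 (adjusted p = 0.0754), 1.5M library 2 (0.0639) or 1.5M library 3 (0.0539), nor after quantile normalization (0.0635), and 4 of its 12 values are fractional. The class II transactivator Ciita was at 4.97, 2.17 and 1.95 and 1.84, 5.72 and 1.78 and did not pass.

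The promoters of class II genes are shown because these members moved together. Each is the RefSeq window (GRCm38.p6) of 250 bases before the start, with the CAAT-box letters CCAAT, or their complement ATTGG, in capitals. H2-Eb1 is at chr17:34305617-34305866 (plus strand), H2-Aa at chr17:34287824-34288073 (minus strand) and H2-DMb1 at chr17:34152941-34153190 (plus strand).
H2-Eb1: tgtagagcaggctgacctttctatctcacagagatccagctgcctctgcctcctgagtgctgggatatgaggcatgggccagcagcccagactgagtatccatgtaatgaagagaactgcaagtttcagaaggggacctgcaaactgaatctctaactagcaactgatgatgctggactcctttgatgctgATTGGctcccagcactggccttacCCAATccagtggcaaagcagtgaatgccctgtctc
H2-Aa: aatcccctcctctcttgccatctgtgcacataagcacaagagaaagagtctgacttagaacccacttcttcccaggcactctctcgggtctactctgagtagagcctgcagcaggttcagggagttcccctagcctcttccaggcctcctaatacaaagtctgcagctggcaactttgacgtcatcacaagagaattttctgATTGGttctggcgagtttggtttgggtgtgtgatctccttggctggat
H2-DMb1: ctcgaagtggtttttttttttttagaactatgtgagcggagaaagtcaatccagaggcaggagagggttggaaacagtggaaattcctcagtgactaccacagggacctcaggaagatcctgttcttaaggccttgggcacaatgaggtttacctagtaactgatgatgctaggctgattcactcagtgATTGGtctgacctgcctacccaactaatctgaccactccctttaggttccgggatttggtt
The matches start 59 and 35 bases before the start in H2-Eb1, 48 in H2-Aa and 61 in H2-DMb1. Among all windows, 33.8% hold these letters. Of the other class II genes that rose, H2-DMa had the letters in 1 of its 2 windows, and H2-Ab1 and Cd74 had no entry. The letters also stood in the windows of H2-DMb2, H2-Oa, H2-Ob, Rfx5 and Rfxank, in 2 of 3 windows of Marchf1, none of them called, and in 1 of 2 windows of Lgmn, which fell.

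The proteases Ctss and Lgmn, which act in the same compartment, went the other way, while the cathepsins Ctsb and Ctsh, given below, did not pass. Cathepsin S (Ctss), which trims the invariant chain, fell from 95.2, 81.4 and 103 to 48.8, 42.9 and 58.6 (log2 fold change -0.88, adjusted p = 0.00204). Legumain (Lgmn), an asparaginyl endopeptidase, fell from 29.8, 19.5 and 27.3 to 0.921, 1.43 and 2.67 (log2 fold change -3.34, adjusted p = 3.73e-08), 15.3-fold lower at 1.5M. For class I, 1 of 21 tested members rose, H2-M2, and 3 fell. The list's median of -0.14 (-0.11 as the floored log2 ratio) turned to 0.06 with median-of-ratios scaling, 0.10 with quantile normalization and 0.03 in the fit of the 6 wild-type libraries. B2m, the light chain of class I molecules, fell from 164, 153 and 150.4 to 98.6, 76.5 and 76.4 (log2 fold change -0.90, adjusted p = 0.000247). The heavy chain H2-D1 fell from 87.5, 104 and 93.4 to 60.6, 56.9 and 58.3 (log2 fold change -0.69, adjusted p = 0.00484, and 0.0638 with median-of-ratios scaling), with fractional values in all 12 libraries.

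**Figure D3:**
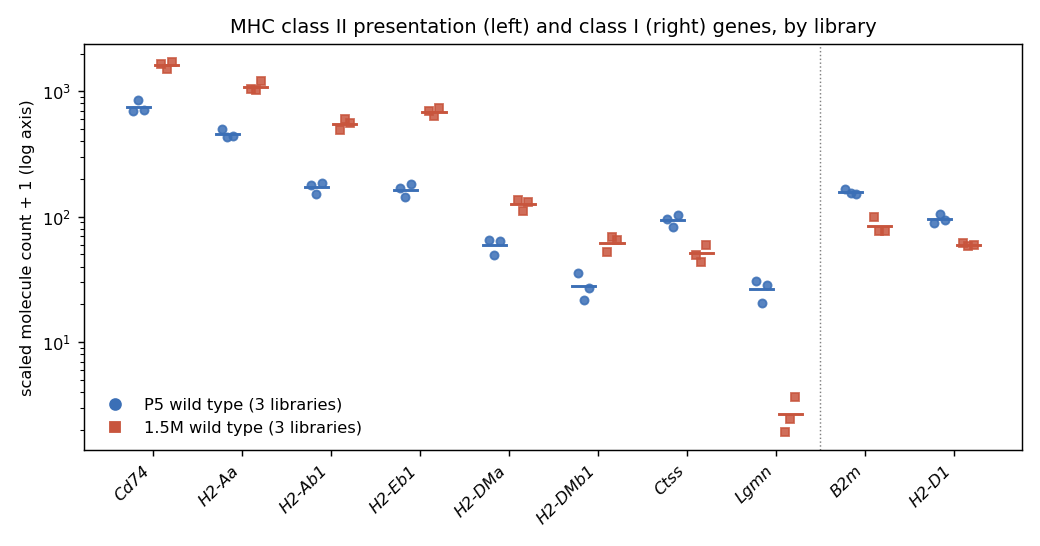
Scaled molecule counts + 1 on a log axis in each P5 (circles) and 1.5M (squares) wild-type library for class II presentation genes, left of the dotted line, and the class I genes B2m and H2-D1, right of it; bars are means of 3 libraries. The class II chains, Cd74 and the DM genes stood higher at 1.5M, and Ctss, Lgmn, B2m and H2-D1 stood lower.

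Costimulation changed in part. Of 17 tested activation genes, 2 rose and none fell (median 0.000 (-0.11 as the floored log2 ratio)). Cd83, which stabilises class II at the surface, rose from 8.53, 5.42 and 8.79 to 54.4, 70.1 and 91.5, or 9.498-fold (log2 fold change 3.08, adjusted p = 1.72e-07). Cd86, a ligand of CD28, went from 3.55, 5.42 and 3.91 to 18.4, 15.02 and 28.4 (log2 fold change 1.999, adjusted p = 0.0161), and lost its call without P5 library 1 (adjusted p = 0.0676), P5 library 3 (0.0520) or 1.5M library 3 (0.0873). Ccr7, the receptor that guides migrating dendritic cells to lymph nodes, was at 0 in all 3 P5 libraries and 1.84, 0.715 and 0.888 at 1.5M. Cd40 was at 0, 0 and 0.977 and 0.921, 4.29 and 2.67. Neither passed the test.

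Macrophage and monocyte genes fell. Of 21 tested members 11 fell and none rose, with a median of -1.42 (-1.26 as the floored log2 ratio) against -0.22 over all genes. The list's summed level was 188, 221 and 173 at P5 and 58.97, 50.8 and 52.9 at 1.5M, without overlap (exact permutation p = 0.1). The summed levels of most lists did not overlap between the ages, those of ribosomal protein and proteasome genes among them. Tgfbi, a TGF-β-induced matrix protein, was at 19.9, 26.04 and 20.5 at P5 and at 0 in all 3 libraries of 1.5M, at least 26.6-fold higher at P5 (log2 fold change -4.52 ± 0.23 (SE), adjusted p = 1.21e-11). The mannose receptor Mrc1 was at 11.4, 6.51 and 7.81 at P5 and 0 in all 3 at 1.5M, at least 10.3-fold higher at P5. Apoe, a lipid carrier gene also on this list, was at 14.2, 48.8 and 34.2 and 35.9, 24.3 and 31.98 and did not pass.

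All 3 chains of C1q, which opens the classical complement pathway, fell. C1qa went from 26.998, 34.7 and 30.3 to 4.61, 7.15 and 4.44 (5.68-fold, adjusted p = 4.7e-07). C1qb went from 39.1, 29.3 and 16.6 to 0.921, 0 and 0.888 (adjusted p = 9.24e-09). C1qc went from 18.5, 24.95 and 27.3 to 0, 2.15 and 0 (adjusted p = 3.61e-08). The P5 level of all 3 was similar, and C1qa alone kept molecules in every 1.5M library. Of 14 tested complement genes 5 fell and none rose.

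Other genes were among those with the largest decreases. Tmem119, a membrane protein known as a microglial marker, was at 12.1, 20.6 and 22.5 and then 0 in all 3, at least 22.1-fold higher at P5. Cybb, the X-linked gene of the NADPH oxidase core protein that makes superoxide, was at 16.3, 17.4 and 11.7 and then 0 in all 3, at least 18.2-fold higher at P5. Ms4a6c, of the membrane-spanning 4A family, went from 9.59, 15.2 and 14.2 to 0, 1.07 and 0 (log2 fold change -3.43, adjusted p = 5.49e-07), though 7 of its 12 values are fractional. The granule proteoglycan gene Srgn went from 17.1, 10.8 and 4.88 to 0, 0 and 0.888 (log2 fold change -3.13, adjusted p = 1.66e-05). Apobec1, an RNA-editing deaminase, was at 7.105, 9.76 and 9.77 and 0 in all 3, and Dab2, an endocytic adaptor, at 9.95, 3.25 and 8.79 and 0 in all 3. All 4 genes other than Ms4a6c and Srgn were thus at 0 throughout at 1.5M.

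Some C-type lectin and Fc receptor genes fell. Of 26 tested genes on a separate list of pattern recognition receptors, 2 fell, 1 rose and 23 were not called. Among 18 tested C-type lectins 4 fell and 1 rose. Clec7a, the β-glucan receptor dectin-1, was the member that rose, from 0.7105, 1.08 and 1.95 to 23.04, 20.03 and 23.99, or 17.9-fold (log2 fold change 3.41, adjusted p = 2.58e-05). Clec4a3, an inhibitory DCIR family lectin, fell from 7.105, 8.68 and 8.79 to 0, 1.43 and 0 (log2 fold change -2.77, adjusted p = 0.000171), and Clec4a2 of the same family from 8.17, 13.02 and 15.6 to 0, 1.79 and 0.888 (log2 fold change -2.89, adjusted p = 1.82e-05), with 5 of 12 Clec4a2 values fractional. Of 11 tested Fc receptor genes and adaptors 3 fell and none rose. Fcgr3, a low-affinity IgG receptor, fell from 9.24, 16.3 and 10.7 to 3.69, 2.15 and 1.78 (log2 fold change -1.89, adjusted p = 0.00405). Fcer1g, the signalling chain of these receptors, went from 34.8, 26.04 and 31.3 to 14.7, 15.02 and 15.1 (log2 fold change -0.98, adjusted p = 0.0170003), and this call did not hold without P5 library 1 (adjusted p = 0.0781) or P5 library 3 (0.0537).

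Chemokine receptors fell. Of 10 tested members 6 fell and none rose, with a median of -1.48 (-1.51 as the floored log2 ratio). All 6 were at 0 in every 1.5M library and were low at P5. Ccr1, a receptor for inflammatory CC chemokines, was at 4.26, 7.59 and 2.93 at P5 (log2 fold change -2.49, adjusted p = 0.002798). Cxcr4, the receptor for CXCL12, was at 3.55, 1.08 and 4.88 (log2 fold change -1.93, adjusted p = 0.00148). Ccr6, the receptor for CCL20 by which Langerhans cell precursors are drawn to epithelium, was at 1.42, 1.08 and 2.93 (log2 fold change -1.44, adjusted p = 0.0112). Ccr2, the monocyte receptor for CCL2, was at 4.97, 2.17 and 1.95 (log2 fold change -1.94, adjusted p = 0.0170003) and lost its call without P5 library 1 (adjusted p = 0.0947). Cx3cr1, the fractalkine receptor, lost its call without P5 library 1 (0.0784) or P5 library 2 (0.0546). No P5 library held more than 7.59 of any of them, so these calls rest on few molecules.

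A receptor and inhibitors of the TGF-β pathway were among the genes that changed. TGF-β signals through a type II and a type I receptor to Smad proteins, which Smad7, Skil and Tgif1 restrain. Of 23 tested members 3 rose and 3 fell (median -0.26 (-0.12 as the floored log2 ratio)). Tgfbr1, the type I receptor, fell from 30.6, 30.4 and 16.6 to 0.921, 1.43 and 2.67, 15.5-fold lower at 1.5M (log2 fold change -3.33 ± 0.31 (SE), adjusted p = 2.23e-07). No 1.5M library exceeded 2.67, and no P5 library was below 16.6. The type II receptor Tgfbr2 was at 1.42, 6.51 and 0.977 and 3.69, 4.29 and 2.67 and did not pass. Axl, a TAM receptor kinase that TGF-β induces in Langerhans cells, was at 1.42, 10.8 and 3.91 and then 0 in all 3 (log2 fold change -2.38, adjusted p = 0.00461, and 0.056 with a pseudocount of 10). Tgif1 rose from 2.84, 2.17 and 1.95 to 6.45, 12.2 and 14.2 (log2 fold change 1.79, adjusted p = 0.00342). Skil rose from 6.39, 3.25 and 7.81 to 18.4, 15.7 and 14.2 (log2 fold change 1.39, adjusted p = 0.00897), and lost its call without P5 library 2 (0.0581). Smad7 went from 2.13, 4.34 and 1.95 to 7.37, 10.02 and 7.11 (log2 fold change 1.31, adjusted p = 0.0391), a call that was lost in 10 of 18 alternatives, among them voom (0.072) and leaving out any library other than P5 library 2 (up to 0.147).

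Of 7 tested Runx and core-binding factor genes limma and voom each called 0, and 2 were higher at an unadjusted p under 0.05. Runx3, the family member on which Langerhans cells depend, was at 7.82, 4.34 and 9.77 at P5 and 15.7, 20.7 and 10.7 at 1.5M (log2 fold change 1.02, adjusted p = 0.08705). It passed in 3 of 18 alternatives, with median-of-ratios scaling (adjusted p = 0.0406), at equal depth (0.0430) and among genes of mean 2 or more (0.0329). Cbfb, the β subunit gene shared by all Runx proteins, was at 4.97, 4.34 and 3.91 and 13.8, 7.15 and 10.7 (log2 fold change 1.06, adjusted p = 0.129, and 0.0286 with a pseudocount of 10), and Runx1 at 2.13, 6.51 and 0.977 and 5.53, 3.58 and 2.67. The tags are read near the 3′ end, so Cbfβ splice forms cannot be separated.

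Among 30 tested myeloid transcription factors 3 rose and 4 fell. Cebpa, the C/EBP factor of granulocyte and monocyte progenitors, fell from 7.105, 7.59 and 5.86 to 0.921, 0 and 0 (log2 fold change -2.65, adjusted p = 5.96e-05). Nr4a1, an orphan nuclear receptor, rose from 9.24, 5.42 and 9.77 to 35.02, 49.4 and 35.5 (log2 fold change 2.18, adjusted p = 6.87e-06), and Nfkbiz, an atypical IκB, from 3.55, 1.08 and 0 to 12.9, 10.02 and 14.2 (log2 fold change 2.65, adjusted p = 0.000157). None of these 3 genes had overlapping ages, as for nearly all called genes. Irf8 went from 9.95, 13.02 and 9.77 to 6.45, 3.58 and 0.888 (log2 fold change -1.56, adjusted p = 0.0352). That call was lost when any library other than 1.5M library 1 was left out, with adjusted p up to 0.201.

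Immediate early genes rose together. These genes, among them the Fos and Jun subunits of AP-1, respond within minutes to many stimuli. Of 27 tested members 16 rose and none fell and the median was 1.36 (1.51 as the floored log2 ratio). The summed level was 274, 179 and 249 at P5 and 640.4, 807 and 711 at 1.5M. Fosb rose most among the Fos genes, from 9.95, 10.8 and 24.4 to 103, 158 and 134, or 8.75-fold (log2 fold change 3.14 ± 0.27 (SE), adjusted p = 7.44e-08). Fosl2 rose from 7.105, 2.17 and 5.86 to 27.6, 27.9 and 22.2 (log2 fold change 2.26, adjusted p = 0.000269), Fos from 24.2, 9.76 and 15.6 to 46.99, 53.7 and 42.6 (log2 fold change 1.56, adjusted p = 0.000171) and Junb from 26.3, 17.4 and 21.5 to 35.02, 75.1 and 55.1 (log2 fold change 1.26, adjusted p = 0.00395). Jun stayed low, at 2.13, 3.25 and 0 and 4.61, 5.72 and 7.996 (log2 fold change 1.56, adjusted p = 0.0399), and lost its call when any library other than P5 library 2 was left out, with adjusted p up to 0.193.

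Partners and feedback regulators moved the same way. Maff, a small Maf protein, rose from 1.42, 0 and 0.977 to 19.4, 12.2 and 17.8, or 20.6-fold (log2 fold change 3.35, adjusted p = 1.06e-05). Egr1, a zinc-finger factor, rose 5.16-fold (log2 fold change 2.14, adjusted p = 0.000536). The MAP kinase phosphatases Dusp2, 6.53-fold higher (adjusted p = 0.000116), and Dusp1, 3.76-fold higher (adjusted p = 6.88e-05), were also called. Zfp36, which degrades cytokine transcripts, was already at 60.4, 42.3 and 57.6 at P5 and reached 114, 124 and 113 (log2 fold change 1.13, adjusted p = 0.000112). Heat shock genes did not move as a group: of 21 tested members 2 rose and 1 fell. Hspa1a, the inducible Hsp70, was at 48.3, 24.4 and 28.6 and 34.1, 36.7 and 21.3, and Hspa8, the constitutive form, at 89.5, 87.9 and 82.05 and 106, 107 and 115, neither past the threshold.

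Several NF-κB feedback genes and inflammatory mediators rose. NF-κB subunits are held in the cytoplasm by IκB proteins, whose genes they induce. Of 26 tested NF-κB genes 7 rose and none fell (median 0.61 (0.75 as the floored log2 ratio)). Tnfaip3, the ubiquitin-editing inhibitor A20, rose from 4.97, 4.34 and 1.95 to 44.2, 25.04 and 43.5, or 10.01-fold (log2 fold change 3.04, adjusted p = 9.03e-07). Nfkbia, which encodes IκBα, rose from 14.2, 2.17 and 9.77 to 41.5, 34.3 and 34.7 (log2 fold change 2.23, adjusted p = 0.000339). The subunit gene Nfkb1 was at 7.105, 4.34 and 2.93 and 8.29, 5.01 and 3.55 and did not pass.

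Among 24 tested cytokine and chemokine genes 5 rose, 1 fell and 18 were not called (median -0.01 (-0.11 as the floored log2 ratio)). Il1b, which encodes interleukin-1β, rose from 28.4, 27.1 and 32.2 to 239.6, 132 and 219, or 6.74-fold (log2 fold change 2.67 ± 0.29 (SE), adjusted p = 1.64e-06), and was the most abundant of those that rose. Cxcl2, a neutrophil chemoattractant, rose from 18.5, 3.25 and 4.88 to 36.9, 26.5 and 36.4 (log2 fold change 2.11, adjusted p = 0.00253). Ccl4, a CC chemokine, was the member that fell, from 7.82, 3.25 and 1.95 to 0 in all 3 at 1.5M (log2 fold change -2.26, adjusted p = 0.0101), and lost its call without P5 library 1 (0.0797). Tnf was at 4.26, 1.08 and 0.977 and 10.1, 2.86 and 8.88 and did not pass. With the decoy receptor Il1r2 at 124, 124 and 151, transcripts of both the cytokine and its decoy were abundant at 1.5M.

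A few interferon-stimulated genes changed. Of 33 tested members 4 fell and 1 rose, and 27 had a negative change, against 6276 of the 10023 genes tested. The median was -0.48 (-0.23 as the floored log2 ratio) against -0.22 over all genes. Ifitm3, an antiviral membrane protein, was at 7.105, 5.42 and 5.86 and then 0 in all 3, at least 7.37-fold higher at P5 (log2 fold change -2.83, adjusted p = 2.18e-05). Ifitm2 of the same family was the member that rose, from 14.9, 4.34 and 2.93 to 23.96, 15.7 and 22.2 (log2 fold change 1.62, adjusted p = 0.00984), and lost its call without P5 library 2 (0.0514) or P5 library 3 (0.0679). Isg15 had at most 1.08 in any wild-type library.

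Part of the lysosomal genes fell. Of 40 tested members 9 fell, none rose and 31 were not called. A negative change was seen in 35 of 40, against 6276 of the 10023 genes tested, and the median was -0.59 (-0.64 as the floored log2 ratio). The summed level was 511, 505 and 517 at P5 and 293, 266 and 279.9 at 1.5M, without overlap, as for most lists. Gusb, β-glucuronidase, fell from 12.8, 18.4 and 10.7 to 2.76, 5.72 and 0.888 (log2 fold change -2.01, adjusted p = 0.00155). Psap, the precursor of the saposins that help degrade sphingolipids, fell from 49.7, 71.6 and 41.02 to 23.04, 16.5 and 23.1 (log2 fold change -1.31, adjusted p = 0.000217). The major cathepsins Ctsb, at 31.97, 31.5 and 27.3 and 22.1, 16.5 and 19.5, and Ctsh, at 21.3, 26.04 and 22.5 and 28.6, 17.9 and 23.1, did not pass the test.

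Several epithelial junction genes rose, and 2 integrins fell. Of 31 tested members 8 rose and 2 fell (median 0.37 (0.39 as the floored log2 ratio)). Ctnna1, the α-catenin that ties cadherins to actin, rose from 4.97, 10.8 and 1.95 to 35.02, 30.05 and 18.7 (log2 fold change 2.24, adjusted p = 0.000551). Spint1, a membrane serine protease inhibitor of epithelia, was at 0 in all 3 and then 2.76, 5.72 and 3.55 (log2 fold change 2.28, adjusted p = 0.00317). Cldn1 and Epcam, described above, are members of this list too. Itgb5, which pairs with αv, was at 6.39, 5.42 and 6.84 and then 0 in all 3, at least 7.48-fold higher at P5 (log2 fold change -2.85, adjusted p = 6.24e-05), and Itga4 was the other member that fell, from 2.13, 4.34 and 6.84 to 0, 2.15 and 0 (log2 fold change -1.79, adjusted p = 0.0385), without a call when P5 library 2 (0.0944) or P5 library 3 (0.157), 1.5M library 1 (0.141) or 1.5M library 3 (0.146) was left out. CD11c (Itgax) was at 8.53, 15.2 and 6.84 and 12.9, 17.2 and 18.7 and did not pass. The summed keratinocyte markers, which include epithelial transcripts, are given below, and a part of keratinocyte RNA in these junction genes was not tested.

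Cytoskeletal genes split. Of 32 tested members 3 rose and 5 fell, and the median of -0.15 (-0.19 as the floored log2 ratio) turned to 0.05 with median-of-ratios scaling. Rac2, a small GTPase of blood cells, was at 4.26, 4.34 and 10.7 and then 0 in all 3, at least 7.76-fold higher at P5. Cfl1, cofilin, fell from 70.3, 81.4 and 74.2 to 50.7, 31.5 and 35.5 (log2 fold change -0.95, adjusted p = 0.00282). Cotl1, a coactosin that binds actin, fell from 9.95, 13.02 and 12.7 to 1.84, 0.715 and 0 (log2 fold change -2.92, adjusted p = 5.56e-06). Actb was at 446, 507 and 459 and 428, 416 and 416, and vimentin (Vim) at 234, 242 and 257 and 217, 158 and 192; neither passed.

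Several genes of small calcium-binding S100 proteins rose. Of 16 tested S100 and annexin genes 5 rose and none fell (median 0.51 (0.60 as the floored log2 ratio)). S100a6 rose from 21.3, 15.2 and 6.84 to 49.8, 50.8 and 46.2 (log2 fold change 1.82, adjusted p = 0.000151). S100a11 rose from 34.8, 33.6 and 23.4 to 61.7, 98.7 and 71.97 (log2 fold change 1.30, adjusted p = 0.000849), S100a10 2.597-fold (adjusted p = 0.00276) and S100a4 2.37-fold (adjusted p = 0.000536). The neutrophil S100 genes were different: S100a8 was at 0, 0 and 3.91 at P5 and 0 in all 3 libraries of 1.5M, and S100a9 at 1.42, 0 and 0 and 0 in all 3.

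Lipid mediator enzymes rose in part. Of 15 tested members 4 rose and none fell, although the median was -0.09 (-0.11 as the floored log2 ratio). Hpgds, the haematopoietic prostaglandin D synthase, rose from 9.24, 7.59 and 10.7 to 24.9, 24.3 and 20.4 (log2 fold change 1.26, adjusted p = 0.00772). Ptgs1, cyclooxygenase 1, which feeds it, rose from 12.1, 9.04 and 8.79 to 45.2, 25.8 and 29.3 (log2 fold change 1.62, adjusted p = 0.00395, and 0.131 with a pseudocount of 0.1). Alox5, the 5-lipoxygenase, went from 10.7, 15.2 and 11.7 to 22.1, 36.5 and 34.7 (log2 fold change 1.23, adjusted p = 0.0395), a call that was lost when any library other than 1.5M library 1 was left out, with adjusted p up to 0.147. Ltc4s, leukotriene C4 synthase, was at 9.95, 9.76 and 11.7 and 10.1, 22.9 and 19.5 and did not pass.

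Genes of the list of matrix proteases and related proteins were called in both directions. Mmp9, the gelatinase that dendritic cells use to leave epithelium, was at 0, 1.08 and 0 at P5, a single molecule, and at 24.9, 18.6 and 15.99 at 1.5M (log2 fold change 4.004, adjusted p = 1.5e-05). Of 16 tested members it alone rose, 3 fell (Tgfbi, described above, Timp2 and Plau) and 12 were not called. Over all genes tested 5.21% were called. Timp2, a metalloproteinase inhibitor, fell from 7.82, 5.42 and 2.93 to 0.921, 0 and 0 (log2 fold change -2.29, adjusted p = 0.00278). Plau, urokinase, fell from 7.82, 5.42 and 9.77 to 0, 0.715 and 4.44 (log2 fold change -2.01, adjusted p = 0.0198) and did not pass without P5 library 1 (0.0707), P5 library 3 (0.0821), 1.5M library 1 (0.116) or 1.5M library 2 (0.0746). Mmp9 is also a neutrophil marker, and it was the neutrophil list's only called member.

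Proliferation genes were low and leaned lower. Of 31 tested mitosis genes none had a positive change and 30 had a negative one, with a median of -0.90 (-0.80 as the floored log2 ratio). Over all tested genes 6276 of 10023 had a negative change, the median was -0.22 and 2.84% were called lower. A single member passed, Cdc20, an activator of the anaphase-promoting complex, at 1.42, 2.17 and 2.93 at P5 and 0 in all 3 at 1.5M (log2 fold change -1.64, adjusted p = 0.0163). It lost its call without each 1.5M library in turn (adjusted p = 0.0615, 0.0608 and 0.0601). The summed mitosis level was 68.2, 38.2 and 62.5 at P5 and 19.5, 3.88 and 8.84 at 1.5M, without overlap, as for most lists (exact permutation p = 0.1). Mki67, a marker of cycling cells, was at 6.39, 2.17 and 4.88 and 4.61, 2.15 and 0, and Top2a, topoisomerase II, at 2.84, 3.25 and 4.88 and 0.921, 0 and 0.888, neither called. Of 26 tested replication genes limma called 0, while 5 were lower and 0 higher at an unadjusted p under 0.05 and voom called 4 lower. Voom called 6 mitosis genes lower.

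Metabolic, proteasome and translation genes were called in part, beside 2.36% higher and 2.84% lower over all genes tested. Of 60 tested respiratory chain genes 6 fell and none rose, with a median of -0.50 (-0.54 as the floored log2 ratio), or -0.29 with median-of-ratios scaling. A negative change was seen in 50 of them, against 6276 of the 10023 genes tested. Their summed level was 641, 701 and 616 at P5 and 479, 424 and 502 at 1.5M, without overlap, as for most lists. Of 77 tested cytosolic ribosomal protein genes 3 fell and none rose, and the median of -0.25 (-0.24 as the floored log2 ratio) was close to that of all genes and went to -0.03 with median-of-ratios scaling. Of 23 tested glycolysis genes 1 rose and 2 fell. Among them Eno1, enolase, fell from 14.2, 16.8 and 11.7 to 5.53, 4.29 and 3.55 (log2 fold change -1.48, adjusted p = 0.002501). Vegfa, a vessel growth factor and hypoxia target, rose from 0.7105, 0 and 0 to 4.61, 5.72 and 12.4 (log2 fold change 2.74, adjusted p = 0.00103). Of 26 tested cholesterol synthesis genes 1 rose and none fell, and of 34 proteasome genes 1 fell, with a median of -0.48 (-0.53 as the floored log2 ratio).

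**Figure D4:**
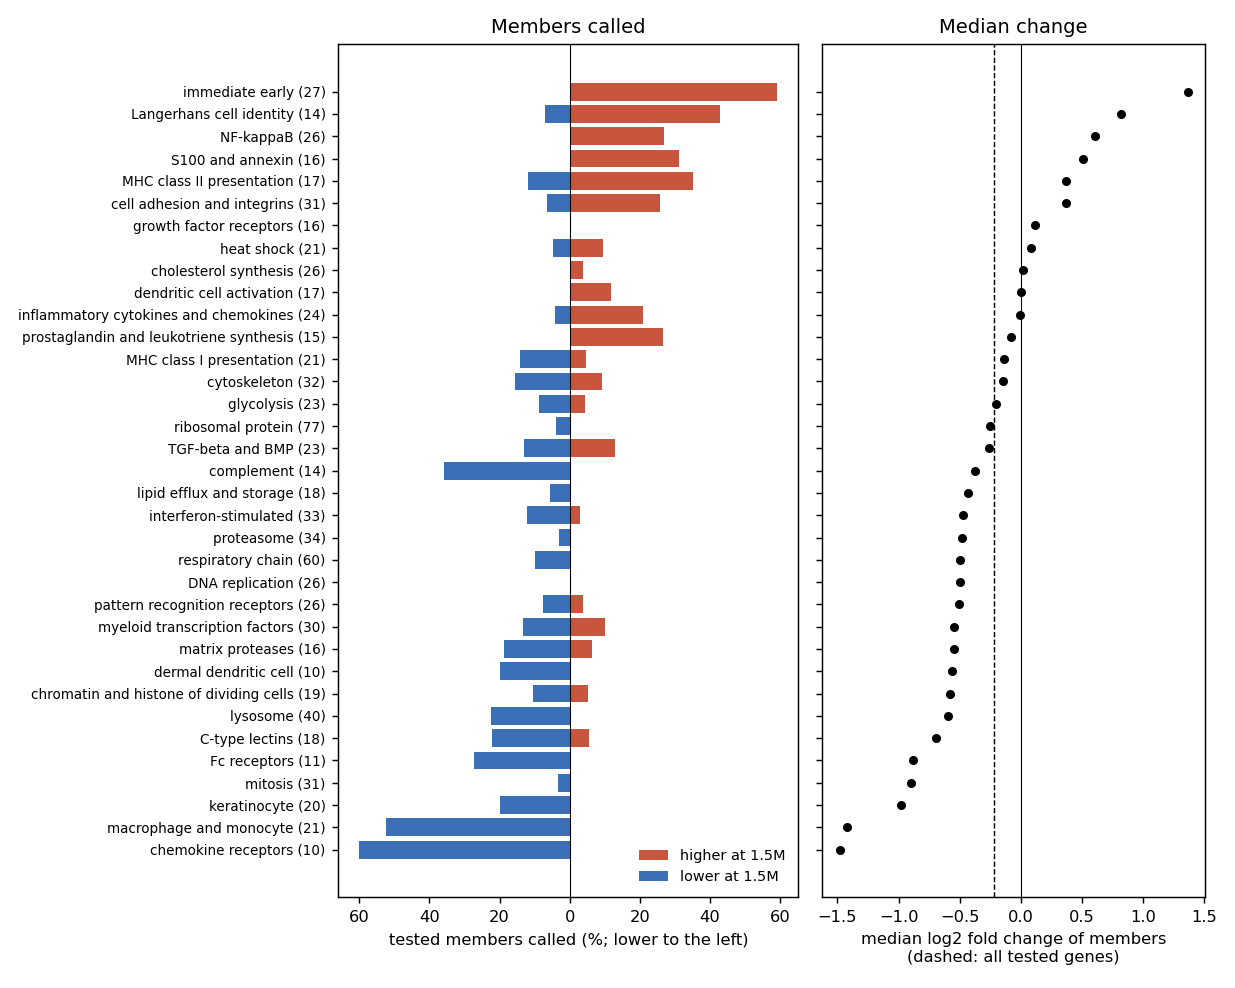
Share of the tested members called higher (to the right) or lower (to the left) at 1.5M, in percent, for lists with 10 or more tested members (number in parentheses), and beside it each list's median log2 fold change; the dashed line is the median of all tested genes at -0.22. Immediate early genes had the highest median, 1.36, and chemokine receptors the lowest, -1.48.

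Markers of other cells also moved with age. Keratinocyte markers summed to 101, 117 and 79.1 at P5 and 58.1, 14.7 and 34.7 at 1.5M without overlap, as for most lists. Of 20 tested members 4 fell and none rose, and of the 22 members 1 was at 0 in all 6 libraries. Krt1, a keratin of the differentiated layers, fell from 16.3, 23.3 and 12.7 to 0.921, 1.07 and 0 (log2 fold change -3.50, adjusted p = 0.000127). Krt10 was at 19.9, 21.7 and 20.5 and 18.4, 1.43 and 7.11 and Krt5 at 7.105, 16.3 and 5.86 and 6.45, 2.15 and 0.888, without a call. T cell markers were near 0: 11 of the 12 with deposited values were at 0 in all 6 libraries, Thy1 among them, and Cd7 was the exception at 0.921, 4.29 and 1.78 at 1.5M. Dermal dendritic cell markers summed to 28.95, 33.8 and 30.6 and 11.1, 16.9 and 8.29, with 2 of 10 members called lower. Neutrophil markers summed to 7.15, 5.97 and 13.7 and 33.3, 18.8 and 21.8, of which Mmp9 gave 0, 1.08 and 0 and 24.9, 18.6 and 15.99. The part of these markers in the results was not tested. With the keratinocyte, neutrophil and erythroid lists left out of the libraries, 516 genes were called.

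The same age step was measured in Cbfβ2 knockout cells, which share no library with wild type. There 315 of 10023 tested genes, or 3.14%, were called, 172 higher and 143 lower at 1.5M. Of the 237 genes higher in wild type 40 were also higher in the knockout, which is 16.9% of the wild-type list and 23.3% of the knockout list. Of the 285 lower in wild type 26 were also lower, 9.1% and 18.2% of the respective lists. Called the opposite way in the knockout were 5 of the 237 and 17 of the 285. The test of the difference between the age effects called 200 genes, 2.0% of those tested. Of these, 132 had a higher age effect in the knockout than in wild type and 68 a lower one, and 127 were among the 522 genes called in wild type. The 1.5M knockout libraries were deeper than all others, at 74620 to 77419 molecules, and with all libraries thinned to equal depth 106 genes differed.

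Langerin and the class II chains rose in both genotypes. In the knockout, Cd207 went from 0 in all 3 to 18.7, 19.4 and 24.9. The difference of age effects was -2.02 ± 0.45 (SE), adjusted p = 0.0141, but it turned to 0.49 with a pseudocount of 0.1 and was not called at equal depth (0.137), with voom (0.347) or without wild-type 1.5M library 3 (0.0677). H2-Aa went from 289.7, 329 and 379 to 666, 677 and 757 in the knockout, a difference of -0.18 ± 0.15 (SE), adjusted p = 0.678, which did not pass. H2-Eb1 rose less in the knockout, from 111, 136 and 167 to 333, 307 and 365 (difference -0.78 ± 0.19 (SE), adjusted p = 0.0272). That difference was not called after quantile normalization (0.0684), nor without wild-type P5 library 1 (0.0525), P5 library 2 (0.0855), 1.5M library 1 (0.0682) or 1.5M library 3 (0.0956), nor without knockout P5 library 2 (0.0504), P5 library 3 (0.085) or 1.5M library 2 (0.0712). Fosb rose by 2.63 on the log2 scale in the knockout and Il1b by 1.89, and neither difference from wild type passed.

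Age effects of several genes described above differed between the genotypes. Cldn1 was at 2.72, 1.45 and 4.7996 at P5 and 0.4795, 0 and 0.479 at 1.5M in the knockout, against its rise in wild type (difference -3.72 ± 0.49 (SE), adjusted p = 7.4e-05). C1qa went from 21.8, 15.3 and 22.8 to 116, 109 and 115 in the knockout, against its fall in wild type (difference 4.79 ± 0.32 (SE), adjusted p = 3.07e-09). Tgfbr1 went from 10.9, 8.0002 and 11.999 to 20.1, 23.4 and 25.4 (difference 4.43 ± 0.45 (SE), adjusted p = 1.81e-06). B2m, which fell in wild type, went from 104, 85.1 and 112 to 164, 170.004 and 166 (difference 1.63 ± 0.20 (SE), adjusted p = 2.62e-05). These 4 differences passed under each of the 23 alternative settings that tested them.

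**Figure D5:**
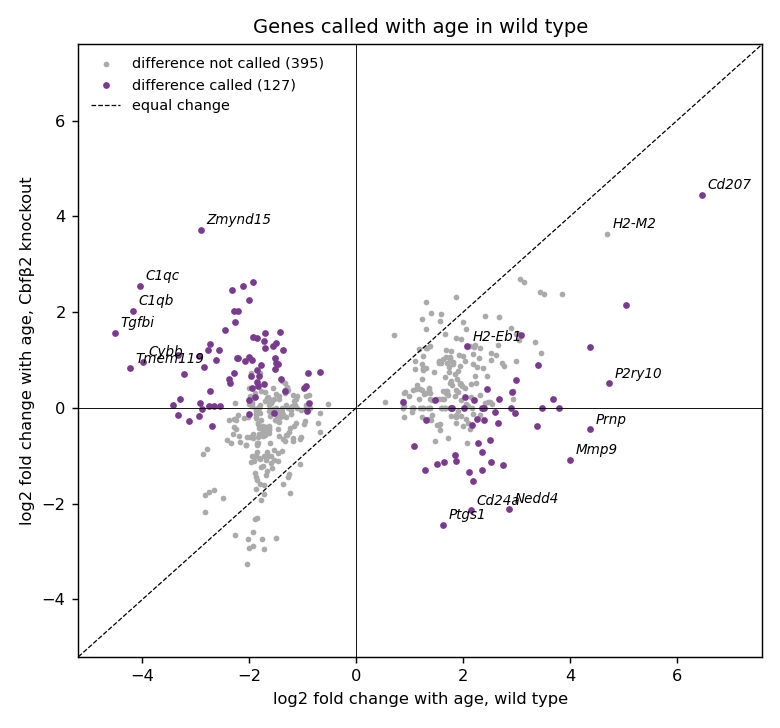
Log2 fold change from P5 to 1.5M in the Cbfβ2 knockout (vertical axis) against that in wild type (horizontal axis) for the 522 genes called in wild type; the 127 genes whose age effects differed by the test of the difference are coloured. The C1q genes and Tgfbi lie at negative changes in wild type and positive ones in the knockout, and Cd207 and H2-M2 are positive in both.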

How the data were processed

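RNA of 100 sorted cells per tube was copied with barcoded oligo-dT primers after heat fragmentation, with ERCC spike-in, per the labels' protocols. An oligo-dT primer reads molecules near their 3′ end, and a barcode lets PCR copies be counted once. The submitters' processing notes name TopHat2 and mm10. For the annotation, counting tool, use of strand and scaling, the sources used here give nothing.

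The authors' deposited table holds a signal for 23420 gene symbols. Above 0, whole multiples of a single step (within 0.01), taken as 1 molecule, made up 92.6% to 94.9% of a library's values, and the others are fractions, as when molecules are shared between genes. The values were therefore not tested as counts, and the plan's branch for normalized values was used. Chi-square per degree of freedom was 1.17 to 1.54 between wild-type libraries of an age, above sampling noise, so none was counted as a duplicate.

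Genes above 0 in at least 3 of 12 libraries were tested on log2(value + 1) with limma 3.58.1 in R 4.3.3, as 4 group means with a mean-variance trend, two-sided, with Benjamini-Hochberg adjustment and a threshold of 0.05. Every adjusted p is from this fit unless a setting is named. The fit was checked on simulated data with fixed fold changes set in genes of mean 2 or more. That simulation did not imitate genes absent at an age or the shift in class II share. Approximate molecule numbers were used for depth, thinning and voom.

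The 44 gene lists and the comparison itself were chosen with earlier results of these data known. Text genes were the 15 largest calls per direction without overlap and with a mean of at least 10, up to 4 called members per list and direction, preset defining markers, the 6 largest differences of age effects per sign, and the 6 highest called genes at 0 at one age. Alternatives were the pseudocount, the filter, the scaling, thinning, voom, a replicate block, wild type alone, marker lists left out and each library left out. Gene positions are from GENCODE vM21 and promoter sequences from RefSeq. Replicate numbers did not pair the libraries: deviations of same-numbered libraries correlated at 0.011, -0.014 and -0.011 over 3192 genes.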

Additional observations from a re-analysis of the deposited data

Results flagged for a closer look

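Age effects that differed between wild type and the Cbfβ2 knockout by the test of the difference numbered 200. The 12 named below had the 6 largest positive and the 6 largest negative differences among genes called in wild type. Differences are the log2 age effect in the knockout minus that in wild type, so the choice by the wild-type call bears on their sign.

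The 6 genes with the largest positive differences had fallen in wild type. Zmynd15, of the MYND zinc-finger family, was at 20.6, 16.3 and 18.6 at P5 and 0, 2.15 and 4.44 at 1.5M in wild type, and at 0.908, 2.91 and 1.1999 and 30.7, 36.8 and 30.2 in the knockout (difference 6.63 ± 0.63 (SE), adjusted p = 6.97e-07). For C1qc the knockout values were 29.1, 18.9 and 23.998 and 129.96, 150.1 and 149.96 (difference 6.60 ± 0.48 (SE), adjusted p = 6.15e-09). For C1qb they were 29.1, 18.9 and 16.8 and 83.4, 83.01 and 100.1 (difference 6.20 ± 0.45 (SE), adjusted p = 6.15e-09). Tgfbi was at 39.96, 40.001 and 39.6 and 98.8, 136 and 130.3 in the knockout (difference 6.10 ± 0.33 (SE), adjusted p = 6.59e-11). Tmem119 was at 7.27, 3.64 and 13.2 and 15.8, 13.4 and 11.5 (difference 5.06 ± 0.54 (SE), adjusted p = 4.67e-06). Cybb was at 25.4, 22.5 and 38.4 and 52.3, 57.7 and 57.01 (difference 4.96 ± 0.39 (SE), adjusted p = 2.35e-08). For each of these 6 genes every wild-type 1.5M library was below every knockout 1.5M library. The genes were chosen with these same values, and the separation was not compared with that of all tested genes.

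The 6 genes with the largest negative differences had risen in wild type. Mmp9 was at 1.82, 0 and 2.3998 at P5 and 0 in all 3 at 1.5M in the knockout (difference -5.09 ± 0.71 (SE), adjusted p = 0.000134). The ubiquitin ligase Nedd4 was at 1.42, 1.08 and 0.977 and 13.8, 12.9 and 17.8 in wild type, and at 2.72, 3.64 and 3.5997 and 0 in all 3 in the knockout (difference -4.97 ± 0.55 (SE), adjusted p = 5.18e-06). Prnp was at 2.72, 0 and 0 and 0, 0 and 0.479 in the knockout (difference -4.82 ± 0.72 (SE), adjusted p = 0.000312). Cd24a was at 6.36, 1.45 and 5.999 and 0, 0.497 and 0 (difference -4.28 ± 0.73 (SE), adjusted p = 0.00115). Ptgs1 was at 4.54, 5.09 and 5.999 and 0.4795, 0 and 0 (difference -4.06 ± 0.47 (SE), adjusted p = 1.23e-05). P2ry10 was at 0 in all 3 and 0.4795, 0.994 and 0 (difference -4.22 ± 0.69 (SE), adjusted p = 0.000757), and with a pseudocount of 0.1 its difference was not called (adjusted p = 0.214).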

How the results depend on the processing

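Of 18 alternatives to the fit of the wild-type comparison, thinning to equal depth moved the count of called genes most, from 522 to 291. The fit of the 6 wild-type libraries alone gave 415, and voom gave the highest count, 637. Leaving out each wild-type library gave 346 to 389. No called gene changed sign, 235 of 522 kept their call without each single wild-type library, and 171 kept it in every alternative that tested them. The replicate block gave 504 genes for the wild-type comparison and 195 for the difference of age effects. For that difference, 200 in the reported fit, a pseudocount of 0.1 gave 133, thinning 106 and voom 348, and leaving out each library 141 to 193. The difference for Cd207 turned from -2.02 to 0.49 with a pseudocount of 0.1 (adjusted p = 0.823); the cause was not tested. Depth limits calls on genes of a few molecules, and the spike-in RNA was not used here for scaling. The median change over all tested genes was -0.06 with quantile normalization and -0.36 with voom.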
